A study of Beta vulgaris with 6 samples.

Results

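Of the 29094 probes whose name begins with P on a custom sugar beet expression array, 296 (1.02%) gave a signal well above background in 5 of the 6 genotypes studied and not in the sixth. The letter P is carried by probes designed on expressed sequence tags and genes, as far as the study's annotation pairs them with accessions. A probe was chosen when the scanner software set its flag for a signal well above background on all arrays of exactly 5 genotypes and on no array of the sixth, and when the lowest of the 5 levels lay at least 2 log2 units above the sixth. The genotype that failed the flag is called the silent genotype below, which means only that the spot was not well above background there. The members were thus selected on the measured signals, so their levels and gaps are a description and were not tested.

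RNA came from the shoot apical meristem of 6 biennial genotypes of Beta vulgaris altissima, grown for 8 weeks at 22 °C with 16 h of light and then kept for 9 weeks at 4 °C. Genotypes 1, 4 and 7 are labelled bolting resistant (a low capacity to bolt) and genotypes 2, 3 and 5 bolting sensitive, and all 6 received the same cold. The study used 1 meristem for each genotype, so that a difference between genotypes and a difference between single plants cannot be told apart. Genotypes 3 and 7 were hybridized to 2 arrays each and the others to 1, which gives 8 arrays on 1 slide.

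The shoot apical meristem is the growing point of the rosette, where stem cells form leaves and, after the floral transition, the elongating stem and the flowers. In biennial beet a long cold period, vernalization, makes the meristem competent for this transition, and bolting is the stem elongation that follows. A one-colour array measures a transcript by the fluorescence of the spot to which its labelled copy binds. A spot that is no brighter than its surroundings therefore gives an upper bound of the level and no measurement of it.

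Levels are given on the log2 scale as the intensity of a spot over the intensity that marks the 75th percentile on its array, control spots left out, so that a level of 0 equals this percentile. The percentile lay at intensities from 288.4 to 422.6. The spots well above background made up from 42.6% (an array of genotype 3) to 45.0% (an array of genotype 7). The probes annotated as the flowering MADS-box genes BvFUL, BvSVP and BvAGL24 were well above background on all 8 arrays, at levels from 0.79 to 5.73. The annotation pairs the BvSVP and BvAGL24 probes with the same gene model, so they may not be separate genes. Its probes had been picked on these same samples, so their detection is no independent check of the tissue. MADS-box genes of this kind encode transcription factors of the shoot apex, and none of these probes was a member. As each sample is a piece of tissue, fewer cells that express a gene and less RNA per cell cannot be told apart.

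Each of the 6 genotypes was the silent one for some probes. Genotype 3 was silent for 73 probes and genotype 5 for 33. Genotypes 4, 1, 2 and 7 lay between them with 55, 54, 44 and 37. This order depended on the processing: with the silent signal raised to the detection floor described below, genotype 1 led with 40 probes against 27 for genotype 3, and with median scaling genotype 7 (32) lay below genotype 5 (40). By bolting class, a resistant genotype was silent for 146 probes and a sensitive genotype for 150. The mean count was 48.7 ± 10.1 (SD, n = 3) for the resistant and 50 ± 20.7 (SD, n = 3) for the sensitive genotypes. The difference of -1.33 was smaller than the SD of either class. A two-sided exact permutation test gave p = 1, but 3 genotypes against 3 cannot give less than 0.1, so that no difference could have passed and the p shows nothing about likeness.

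**Figure D1:**
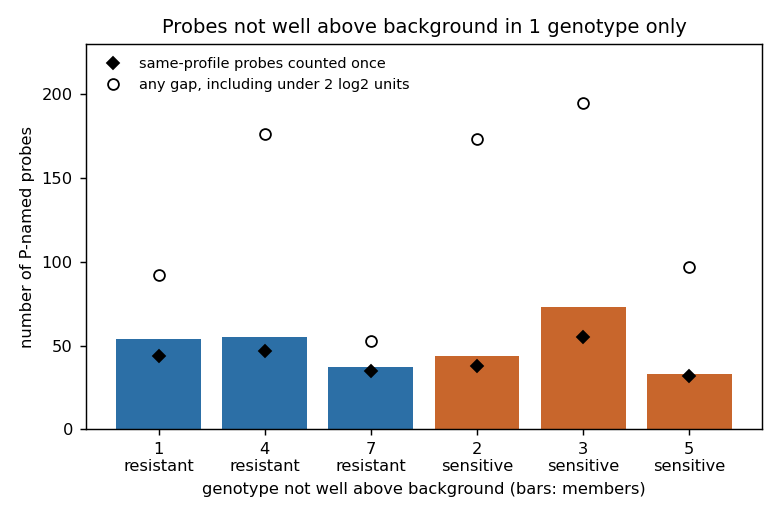
Number of P-named probes (y axis) that were not well above background in 1 genotype only, for each silent genotype (x axis, resistant in blue, sensitive in orange). Bars are the 296 members, diamonds the count with same-profile probes counted once (251 in all), and circles the count with any gap (786 in all); genotype 3 has the tallest bar (73) and genotype 5 the shortest (33) in this setting, while genotype 1 (40) exceeded genotype 3 (27) with the silent signal floored, and genotype 7 (32) lay below genotype 5 (40) with median scaling.

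The counts were set beside what differed between the arrays. The lowest intensity that the software called well above background was 29.5 in genotype 3, against 26.8 in genotype 2, 22.1 in genotype 1, 20.5 in genotype 5, 20.0 in genotype 4 and 17.9 in genotype 7. The share of P spots well above background ran from 73.2% in genotype 3 to 75.8% in genotype 7. The part of these differences in the counts was not tested. The slide holds its arrays in 2 columns. In the first column, resistant genotype 1 had 54 probes and sensitive genotypes 2 and 3 had 44 and 73. In the second column, resistant genotypes 4 and 7 had 55 and 37 and sensitive genotype 5 had 33. The resistant genotype thus lay between the sensitive ones in the first column. It lay above both with the silent signal floored (40 against 25 and 27) and with normexp background correction (23 against 11 and 15). With a gap of at least 1 it lay below both (76 against 80 and 112). In the second column the order of genotypes 7 and 5 turned with median scaling (32 and 40) and with quantile normalization (33 and 40). Genotypes 3 and 7 had to fail the flag on both of their arrays, and 135 and 65 further probes, well above background in the other 5 genotypes, had flags that differed between the 2 arrays and were not members.

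Without the limit on the gap, 786 P probes were well above background in 5 genotypes and not in the sixth. The 490 that fell short of 2 log2 units were unevenly spread. The counts with any gap were 92, 173, 195, 176, 97 and 53 for silent genotypes 1, 2, 3, 4, 5 and 7. Of these, 69.8% in genotype 7 and 58.7% in genotype 1 were members, against 25.4% in genotype 2. The resistant genotypes held 321 of them and the sensitive ones 465, a difference of -48 in the mean count, where the SD of the counts was 62.9 (resistant) and 51.4 (sensitive). By comparison, 19812 P probes (68.1%) were well above background in all 6 genotypes.

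At the limit itself, the probe P26747, just inside, had a level of -5.04 in genotype 2 and -3.04 in genotype 1, its next lowest, a gap of 2.00. P25630, also just inside, lay at -5.84 in genotype 2 and at -3.82 in genotype 5, a gap of 2.02. Just outside, P701 reached -5.55 in genotype 3 against -3.56 in genotype 1, and P21028 reached -3.83 in genotype 5 against -1.84 in genotype 4, gaps of 1.997 and 1.99. The gaps of these 4 probes differ by less than the median difference of 0.07 between duplicate arrays, so that the limit separates them within the error of a single level. Over the 296 members the gap ran from 2.00 to 11.3 log2 units, with a median of 3.53, and 121 members exceeded 4, 57 exceeded 6 and 16 exceeded 8.

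The silent signal was often only a bound. On the 406 silent spots of the members (1 for each array of the silent genotype), 224 were not significantly above background, and for 223 of these the recorded signal lay within 2% of the error that the software assigned to it. Such a value reflects the noise of the array and not a transcript level. The other 182 silent spots were significantly above background, though not well above it. By probe, 149 members had such a significant spot in the silent genotype and 147 had none. The fold between the mean of the 5 genotypes and the silent one was therefore also given as a lower limit. For it the silent signal was replaced, on each array, by the dimmest signal that still counted as well above background, unless the probe itself was brighter. Where the probe was brighter, its own signal was kept and sets no bound. This limit had a median of 13.9-fold and ran from 1.29 to 972. It reached 4-fold for 250 members and 100-fold for 28. The recorded fold was larger, with a median of 41.7. When the silent signal was raised to the same floor before the gap was taken, 162 of the 296 probes still met the limit of 2 log2 units, and with normexp background correction 83 did.

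**Figure D2:**
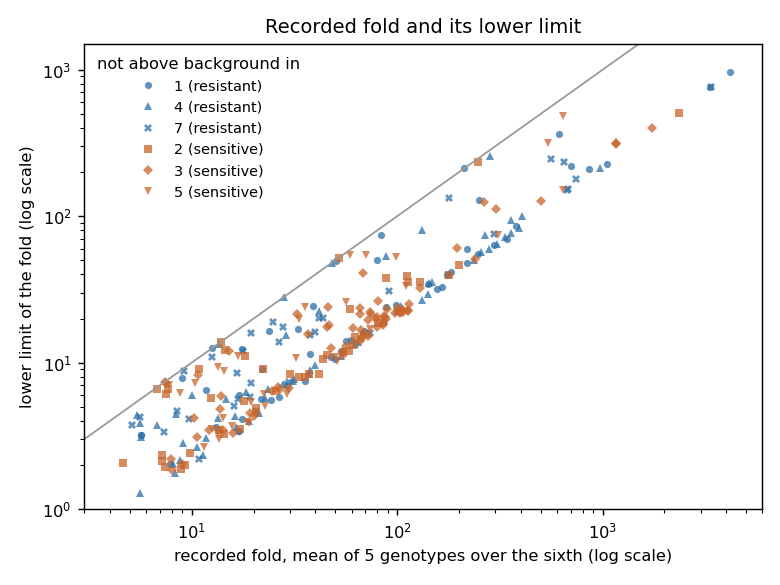
Fold between the mean of the 5 genotypes and the silent genotype as recorded (x axis, log scale) and as a lower limit (y axis, log scale), 1 point for each of the 296 members, with the silent genotype by symbol and its class by colour. Most points lie below the line of equality: the median falls from 41.7 recorded to 13.9 as a lower limit, and the highest point is P4921 at 972.

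Most of the members with the largest lower limit had a bright spot in all 5 other genotypes. For genotype 1 this was P4921, with levels of 4.94 in genotype 2, 6.05 in genotype 3, 5.60 in genotype 4, 5.59 in genotype 5 and 6.25 in genotype 7, against -6.35 in genotype 1. Its intensities were between 12109 and 28150 in those 5 genotypes and 5.13 in genotype 1, which gives at least 972-fold. The 5 levels were close together (SD of 0.51). P25530 was silent in the same genotype at -6.37, with 4.38, 6.63, 5.89, 5.56 and 4.22 in genotypes 2, 3, 4, 5 and 7, at least 763-fold higher on average.

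The third for genotype 1, P27583, did not behave as a transcript present in 5 genotypes at 1 level. It lay at 9.19, 8.83 and 8.80 in genotypes 4, 5 and 7, at only -2.75 and -2.70 in genotypes 2 and 3, and at -4.99 in genotype 1. Its 3 high genotypes comprise 2 resistant and 1 sensitive genotype, so the split runs across the bolting classes. Its limit of at least 366-fold thus rests on 3 genotypes, and its gap to the next lowest was 2.24.

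For sensitive genotype 2 the largest limit belonged to P8227, at least 506-fold. It lay at -6.10 in genotype 2 and at 4.77, 4.72, 5.23, 5.51 and 5.29 in genotypes 1, 3, 4, 5 and 7, a narrow band (SD of 0.34). P503, at least 236-fold, was as even, at 4.09, 4.16, 3.74, 4.35 and 3.68 in those genotypes against -3.95 in genotype 2. P24003 followed with 1.04, 2.90, 2.08, 1.68 and 1.84 against -3.80, a recorded 52.0-fold. For P24003 the recorded and the limiting fold are the same, since its silent signal lay above the floor of the array. Its 52.0 is therefore the recorded value and not a bound.

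For sensitive genotype 3 both arrays can be read. P7527 lay at -5.94 and -5.98 on them and at 3.54, 3.86, 5.72, 5.19 and 5.75 in genotypes 1, 2, 4, 5 and 7, at least 398-fold higher. P7111 gave -5.69 and -5.74, with 4.04, 5.54, 5.72, 2.08 and 4.96 in the other genotypes. P7023 gave -5.73 on both arrays, with 4.05, 5.54, 5.73, 2.00 and 4.97. The levels of P7111 and P7023 differed by at most 0.08 in any of the other 5 genotypes, and their limits were 314-fold and 312-fold.

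For resistant genotype 4, P8518 lay at -3.98 and at 4.36, 4.07, 3.12, 5.71 and 3.56 in genotypes 1, 2, 3, 5 and 7, at least 259-fold higher. P8100 lay at -6.02 against 4.49, 3.50, 3.99, 3.95 and 3.55, at least 215-fold. P27860 lay at -5.87 against 3.80, 1.72, 2.39, 4.81 and 1.23, at least 99.8-fold. Of these, P8100 was the most even over the 5 genotypes (SD of 0.40) and P27860 the least (SD of 1.49).

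For sensitive genotype 5, P24240 lay at -4.49, at 5.84, 6.13, 4.93 and 6.05 in genotypes 1, 2, 3 and 7, and at 1.25 in genotype 4. Genotype 4 was thus lower than the other 4, though above the 75th percentile of its array, and the limit over the mean of the 5 was 483-fold. P8771 lay at -4.84 against 2.87, 6.17, 3.35, 3.25 and 5.53 in genotypes 1, 2, 3, 4 and 7, at least 317-fold. P2061 lay at -6.17 against 3.23, 3.69, 3.15, 3.34 and 2.40, at least 151-fold.

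For resistant genotype 7, again with 2 arrays, P8477 lay at -6.52 and -6.51 and at 4.30, 4.87, 5.65, 7.10 and 4.08 in genotypes 1 to 5, at least 760-fold higher. P8992 gave -5.42 and -5.71 against 3.29, 2.56, 4.86, 3.56 and 3.60, at least 246-fold. P11093 gave -5.79 and -5.91 against 2.44, 5.17, 3.17, 3.52 and 3.20, at least 234-fold. On both arrays each of the 3 stayed more than 2 log2 units below every other genotype. The files give these probes a number and no gene name, and the annotation of array probes pairs none of these 18 with an accession.

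**Figure D3:**
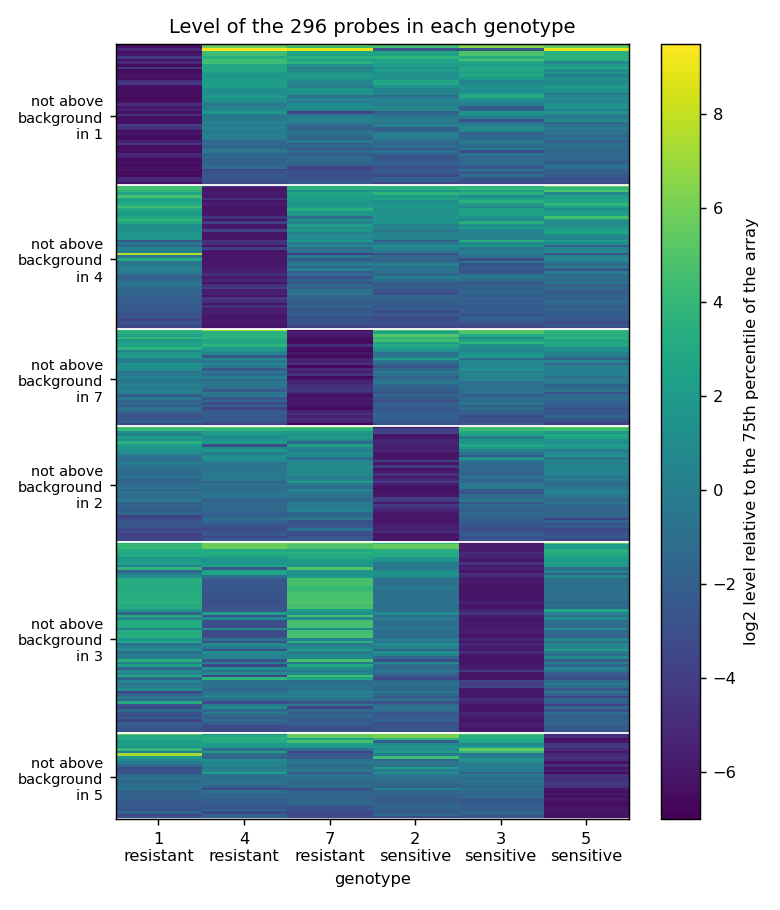
Level of each of the 296 members (rows, sorted by silent genotype and then by the mean of the other 5) in each genotype (columns), as colour on the log2 scale relative to the array's 75th percentile. The dark blocks are the silent genotypes, which the rule selected; the repeated bright and dark stripes in the block of genotype 3 are probes that share a profile over the other 5 genotypes.

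Of the 296 members, 2 have an accession in the supplementary annotation of array probes, which covers 164 P probes. The probes of this annotation had been picked on these same samples. Both members were silent in genotype 3. P23926, paired with BQ489455 and gene model Bv7_169260_ewnm.t1, is annotated as an ATPase of the E1-E2 type family (Arabidopsis AT1G17500), a family of membrane pumps driven by ATP. It lay at -0.19, 0.32 and 0.11 in resistant genotypes 1, 4 and 7, at -2.49 and -3.54 in sensitive genotypes 2 and 5, and at -5.76 and -5.80 on the arrays of genotype 3. The 3 resistant genotypes thus lay close together and above the 2 other sensitive ones. The lower limit of its fold was 6.36. Its gap of 2.24 to genotype 5 fell to 0.28 with the silent signal raised to the detection floor, short of the limit of 2.

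P15696, paired with BQ589670 and gene model Bv_02780_gphc.t1, has no significant match in Arabidopsis by the annotation. It lay at -1.71 in genotype 1, at 3.80 in genotype 4 and at 2.63 and 2.58 on the arrays of genotype 7, at -3.34 and -3.05 in genotypes 2 and 5, and at -6.13 and -6.10 on the arrays of genotype 3. Again each resistant genotype was above each sensitive one, although genotype 1 was much closer to the sensitive genotypes than 4 and 7 were. The lower limit of the fold of P15696 was 11.2. Its gap of 2.77 to genotype 2 fell to 0.48 with the silent signal raised to the floor, also short of the limit. Among the 9 groups of annotated genes that were looked up, from cytochrome P450s and peroxidases to receptor kinases and MADS-box genes, 0 members were found. These groups held at most 5 P probes each. Of the 164 annotated P probes, 115 were well above background in all 6 genotypes and 8 failed in exactly 1 with any gap.

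Over the 5 genotypes in which they were detected, the members were less even and more often dim than the P probes well above background in all 6 genotypes. The SD over the 5 genotypes had a median of 0.88, against 0.32 for those P probes. The range over the 5 exceeded 2-fold for 241 members (81.4%), against 38.1% of those probes, and it exceeded 3 log2 units for 84. The mean of the 5 lay above the 75th percentile of the array for 130 members (43.9%). For those P probes the mean of all 6 genotypes did so in 65.6%. Some of the most and the least even members, named after their values were seen, show the spread. The most even was P20857, silent in genotype 4 at -4.39 and at -1.97, -1.90, -1.89, -1.91 and -1.82 in genotypes 1, 2, 3, 5 and 7, at least 3.87-fold higher. P20706, silent in the same genotype at -4.57, had an SD of only 0.13 over the other 5 genotypes, which lay at least 80.7-fold above it. P29016 was also silent in genotype 4, at -6.11, and ranged over 11.7 log2 units, from 7.69 in genotype 1 to -3.98 in genotype 7. P20179, silent in genotype 5 at -5.19, lay at 7.26 in genotype 1 and at -0.10, -0.53, -1.18 and -2.30 in genotypes 2, 3, 4 and 7, and the software marked its spot of genotype 1 as an outlier. For such probes 1 bright genotype sets the mean of the 5.

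The genotype next lowest after the silent one belonged to the same bolting class for 99 members (33.4%), where 2 of the 5 other genotypes share that class.

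Many members came in groups with the same profile. Members silent in the same genotype were joined when their levels over the other 5 genotypes, each centred on its mean, differed by at most 0.2 in every genotype, for profiles that ranged over at least 1 log2 unit. Groups were built by chains of such matches, so that 2 probes of 1 group may differ by more than 0.2. There were 24 groups with 69 members (23.3%), of which 18 groups were pairs. Of the 5206 pairs of members that could be compared, 94 (1.81%) met the tolerance. Members silent in genotype 3 gave 59 of the 94, or 3.02% of their pairs. For genotypes 1, 2, 4, 5 and 7 the share was 1.02%, 1.89%, 1.22%, 0.362% and 0.430%. Among P probes well above background in all 6 genotypes the share was between 0.124% and 0.134%. Probes of 1 group may not be separate transcripts, and counted once for each profile the members numbered 251, with 126 silent in a resistant and 125 in a sensitive genotype.

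The largest group held 13 probes silent in genotype 3. Their median levels were 3.25 in genotype 1, 4.64 in genotype 7, -0.94 in genotype 2, -1.08 in genotype 5, -2.83 in genotype 4 and -5.98 in genotype 3. Between the 13 probes the level ran from 4.55 to 4.72 in genotype 7, the narrowest range. In genotype 4, the widest of the 5 detected genotypes, it ran from -3.13 to -2.48, and in genotype 5 from -1.29 to -0.90. The genotype lowest after the silent one was genotype 4, a resistant one, while the other resistant genotypes 1 and 7 were the highest. Altogether 23 members silent in genotype 3 had a Pearson correlation of at least 0.99 with this profile over the other 5 genotypes, a value computed over 5 points that share their libraries. They are spread over rows 33 to 358 and columns 4 to 159 of the array, and the closest of them lie 4 spots apart (median distance to the nearest, 25 spots, as the larger of the row and column distance). Among all members, 4 lay within 2 spots of another with the same silent genotype. In genotype 4, the lowest of the other 5, the 23 probes lay between -3.68 and -2.24. The detection floor was -3.83 in genotype 3 and -3.85 in genotype 4. With the silent signal raised to this floor, the gap of each of the 23 fell short of 2 log2 units. Without these 23, genotype 3 was silent for 50 members.

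**Figure D4:**
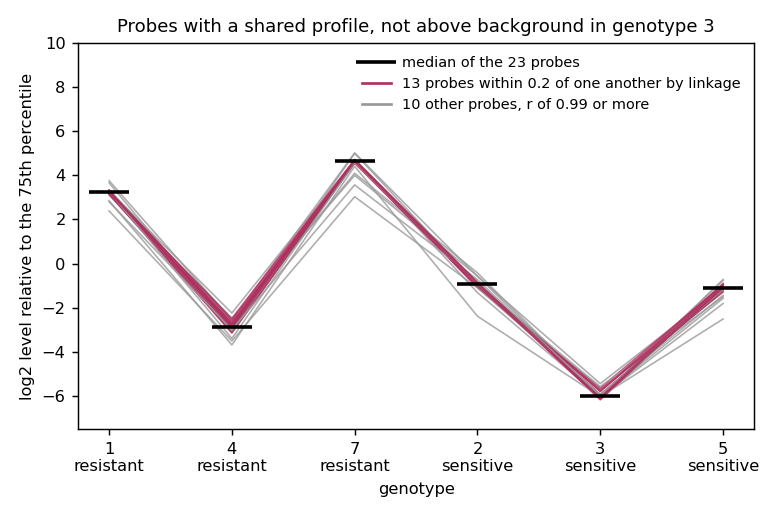
Level (y axis, log2 relative to the array's 75th percentile) in each genotype (x axis) of the 23 members silent in genotype 3 that share a profile, 1 line for each probe, in red for the group of 13 and in grey for the 10 others. Bars mark the medians, which run from 4.63 in genotype 7 and 3.25 in genotype 1 through about -1 in genotypes 2 and 5 to -2.87 in genotype 4 and -6.00 in genotype 3.

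Of the 23 probes, 21 carry numbers between P6900 and P7299, a range that was picked out after its counts were seen. It holds 400 P probes, of which 36 (9%) were members, against 0.906% of the P probes outside it. Within the range, 23 members were silent in genotype 3, 6 in genotype 2, 4 in genotype 4, 2 in genotype 5, 1 in genotype 1 and 0 in genotype 7. A further group from the same numbers was silent in genotype 2 and held P6975, P7157, P7218, P7219, P7224 and P7234. P7218, for example, lay at -6.16 in genotype 2 and at -1.03, -1.38, -0.53, 0.55 and 0.93 in genotypes 1, 3, 4, 5 and 7. The pair P7023 and P7111, described above, lies in this range too. The files do not say what the neighbouring numbers share.

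Of the 24 groups, 10 spanned at most 300 probe numbers and 13 spanned more than 1000, up to 17927. Some of the close groups are described here. P25520, P25529 and P25602 were silent in genotype 1, where they lay at -6.43, -5.90 and -6.27. P25520 reached 2.61, 4.89, 4.46, 3.48 and 2.54 in genotypes 2, 3, 4, 5 and 7, and the other two probes of this group were within 0.15 of it in each of those genotypes. Their lower limits were 229-fold, 220-fold and 211-fold. P11081 and P11093 were silent in genotype 7 and had the same profile at different brightness, with P11081 at 4.58 and P11093 at 5.17 in genotype 2, the highest genotype for both. The 4 members P11953, P12870, P13538 and P14730, silent in genotype 4, carry numbers that are far apart.

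The duplicate arrays of genotypes 3 and 7 allowed the silent call to be looked at on an array that the rule had not used. When the rule was applied to the first arrays only, 75 of 78 probes silent in genotype 3 and 37 of 39 silent in genotype 7 were also not well above background on the second array. When it was applied to the second arrays only, 74 of 79 probes repeated on the first array of genotype 3, but only 37 of 64 on that of genotype 7. Of the 27 that did not repeat there, 21 lie in the outermost columns of the array, from column 154 of 164. These columns hold 6.60% of the P probes. As both arrays had to fail the flag, these 27 probes are not members, and 16 of the 296 members (5.41%) lie in those columns. Genotypes 1, 2, 4 and 5 have 1 array each, on which a spot that failed in hybridization and a transcript below detection cannot be told apart. The paper reports that the genotypes differ in single nucleotide polymorphisms, and probe sequences were not used here. In every genotype, with 1 array or 2, a sequence difference under the probe and a transcript below detection thus cannot be told apart.

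Where a member was detected, the duplicate arrays gave nearly the same level. The median absolute difference was 0.07 in genotype 3 (223 members) and 0.07 in genotype 7 (259 members), and 0 members differed by more than 1 log2 unit in either. The rule had required these members to be well above background on both arrays. Their likeness is thus partly fixed by the choice of members. The local background of the silent spots was also like that of the array, with medians of 24, 25, 22.8, 24, 25 and 21 in genotypes 1, 2, 3, 4, 5 and 7 against 25, 25, 23, 24, 24 and 21 over all P spots.

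**Figure D5:**
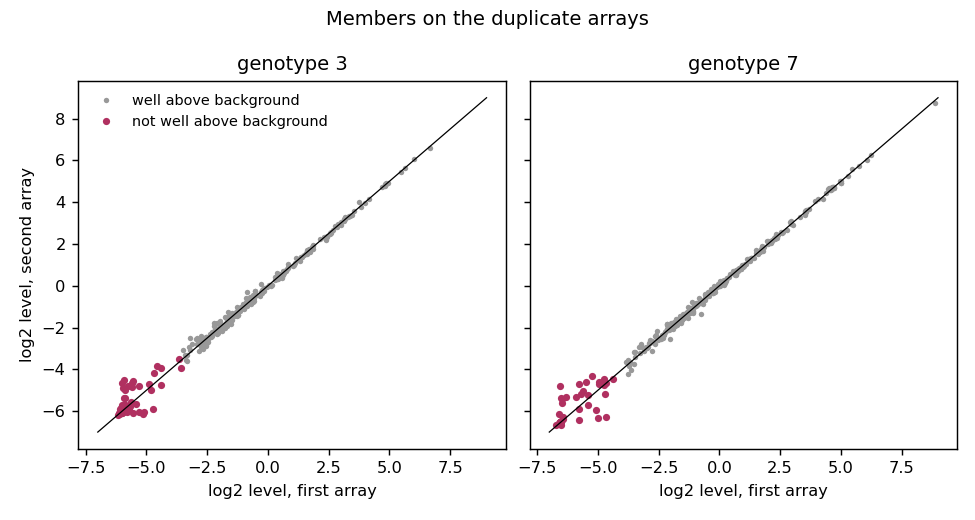
Level of the 296 members on the first (x axis) and second (y axis) array of genotype 3 (left) and genotype 7 (right), on the log2 scale relative to the 75th percentile of each array. Red points are the members silent in that genotype (73 and 37), grey points the others, and the line marks equality; detected members lie along the line and silent ones scatter at the bottom left. The rule required the same flag on both arrays.

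The comparison of resistant with sensitive genotypes, the question of the study, was fitted with limma over 22314 filtered probes, each with 3 genotypes against 3. At an unadjusted p under 0.05 and a fold change over 2, 389 probes (1.74%) were called, and 6 of the 295 members tested. The member left out by the filter was P20179. After Benjamini-Hochberg adjustment 18 probes (0.0807%) were called, and 0 members. The values of the classes did not overlap for 14 members, against 7.30% of the filtered probes. In all 6 called members the class with the silent genotype was the lower one, which the choice of members largely fixes, so nothing is read from these counts. The 6 were P10639, P13088, P13365, P9112 and the annotated P15696 and P23926.

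The contrast was therefore repeated for each member without its silent genotype, which leaves 3 genotypes against 2 and assumes that the smaller class varies like the larger. By limma at the same unadjusted thresholds, 14 of the 296 members were called, 11 of them with the higher level in the resistant genotypes (over all called probes of these fits, between 40.1% and 52.6% were higher in the resistant genotypes), and after adjustment 0 were (adjusted p between 0.403 and 0.9999). Without genotype 1, 3 of its 54 members were called, against 3.57% of the filtered probes, and without genotype 2, 1 of 44, against 2.48%. Without genotype 4 the count was 3 of 55, against 2.28%, and without genotype 5 it was 1 of 33, against 2.17%. Without genotype 3 the count was 3 of 73, against 1.66%, and without genotype 7 it was 3 of 37, against 1.56%. These counts of 1 to 3 were not tested against the shares over all filtered probes.

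The called members silent in genotype 3 were P23926, P9112 and P15696. For P23926 the resistant genotypes had a mean of 0.08 and the 2 remaining sensitive genotypes -3.01, a difference of 3.09 ± 0.39 (limma SE, unadjusted p = 0.00055, adjusted p = 0.403). For P9112 the means were 0.73 and -1.74, a difference of 2.47 ± 0.36 (limma, adjusted p = 0.526). For P15696 they were 1.56 and -3.20, a difference of 4.76 ± 1.70 (limma, adjusted p = 0.9995). Of the members silent in other genotypes, P17370 gave 2.50, 1.93 and 2.32 in the resistant genotypes 1, 4 and 7 against 0.87 and 0.84 in sensitive genotypes 2 and 3, a difference of 1.40 ± 0.25 (limma, adjusted p = 0.501). None of these passed the adjustment. The study had picked the probes of its annotation on these samples, so the values of P23926 and P15696 are no independent evidence.

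Without genotype 3, 34 of its 73 members still differed by more than 2-fold between the class means, 33 of them with the higher mean in the resistant genotypes, against 7.98% of the filtered probes with such a difference. The 23 probes of the shared profile were among the 34, so that these counts rest mostly on 1 profile. The direction over all filtered probes with such a difference was not counted. Without their own silent genotype, the counts for genotypes 1, 2, 4, 5 and 7 were 7 of 54 (9.93% of the filtered probes), 4 of 44 (9.15%), 12 of 55 (8.51%), 10 of 33 (8.65%) and 5 of 37 (7.38%). For the 23 probes the resistant genotypes did not move together, since genotype 4 lay below both remaining sensitive genotypes.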

How the data were processed

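Total RNA of 1 meristem for each of 6 genotypes was labelled with Cy3 and hybridized to 8 arrays. The authors deposited, for each array, output of Feature Extraction 10.7.3.1, with a linear intensity for every spot from which the software had subtracted the background, and without normalization across arrays. They also deposited a table of log2 values, of which 99.99% lay within 0.05 of the first-array scanner values here, scaled to the 75th percentile and centred on the median of each probe. That table served as an alternative. Groups follow the labels, whose genotype numbers are not paired with the names used in the study's text.

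The 75th percentile over non-control spots was subtracted from log2 intensity, and spots, then duplicate arrays, were averaged. limma 3.58.1 in R 4.3.3 compared resistant with sensitive genotypes over the filtered probes, those that met the flag criteria of the methods on every array of a class. Calls used the thresholds of the methods (p of 0.05, fold of 2), unadjusted and after Benjamini-Hochberg adjustment. Python 3.11.15 with pandas 2.3.3, scipy 1.17.1 and matplotlib 3.10.9 applied the rule, gave exact permutation p-values and drew the figures, and the R package data.table (version 1.17.8) read the files. The number of arrays limits the precision.

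The members, the groups of genes looked up and the rules were chosen with earlier results of these data known. The probes named are the members with an accession, the 3 members of each silent genotype with the largest lower limit, and the 2 probes on either side of the gap; other probes were named after their values were seen. Of the accessions and gene models of the 2 annotated members, 0 matched the RefSeq gene list provided. Probe sequences and positions in the genome were not used here.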

Additional observations from a re-analysis of the deposited data

How the results depend on the processing

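The number of members, 296, stayed between 292 and 336 in several settings. It was 292 with median scaling, 297 with quantile normalization and 300 with a flag recomputed at 2.6 times the background SD. The other flag criteria gave 294, 1 array of genotypes 3 and 7 gave 308 and 332, and the authors' log2 table gave 299. With probes of every name it was 335, and without 1 genotype 306 to 336. The probes were not the same throughout: without genotype 3, 223 of the 306 were among the 296, and without genotype 1, 242 of the 328. With same-profile probes counted once the number was 251. It moved to 83 with normexp background correction, to 457 with a gap of at least 1, to 196 with a gap of at least 3 and to 162 with the silent signal floored. Normexp adds an offset to every spot, which narrows each gap.

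The difference in mean count between the classes, -1.33, changed sign with normexp (6.33), the second arrays (6.67), the recomputed flag (3.33), a gap of at least 3 (3.33), the floored signal (7.33), probes of every name (11) and same-profile probes counted once (0.33), and ran from -13.5 to 18.7 without 1 genotype. With 3 genotypes against 3 no setting could give an exact p under 0.1, so these p-values say nothing about stability. Genotype 1 had the most members with normexp (23, genotype 3 15), the floored signal (40, 27) and probes of every name (89, 73), and as many as genotype 3 with a gap of at least 3 (44). Genotype 7 had fewer than genotype 5 with median scaling (32, 40), quantile normalization (33, 40) and a gap of at least 1 (48, 58). The median lower limit of 13.9-fold was 7.21 with a gap of at least 1 and stayed between 12.6 and 20.2 otherwise. Normexp also lowered the limits of the 17 named probes whose value moved, for example of P4921 to 241.

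The share of silent calls repeated on the second array, 95.7%, was 77.6% with the rule on the second arrays and 89.5% with a gap of at least 1. Same-profile groups held 91 members at a tolerance of 0.3 and 40 at 0.1. The same-profile count, these tolerances, the rule on the second arrays and the removal of probes with an outlier flag (294) were chosen after seeing the data.

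limma called 389 probes at the unadjusted thresholds, 776 without the flag filter, 181 with the methods' t-test with equal variances and 132 in its Welch form, and 352 to 810 without 1 genotype. After adjustment the 18 became 10 with normexp, 12 without the filter and 0 with both forms of the methods' t-test, and 0 to 25 without 1 genotype. Of the members, 6 were called, 2 with the equal-variance t-test, 0 with its Welch form and 6 to 35 without 1 genotype, and 0 after adjustment in each of these fits. Without genotype 1, 810 probes (3.57%) and 18 of 296 members were called. Without genotypes 2, 4, 5 and 7 the members called were 13, 35, 16 and 10, of 295 or 296 tested. The shares over all filtered probes were 2.48%, 2.28%, 2.17% and 1.56%. Most members keep their silent genotype in these fits, so the choice of members largely fixes the class difference and nothing is read from these counts. After adjustment 3, 0, 8 and 5 probes were called without genotypes 2, 3, 5 and 7. No paired analysis was possible because the labels give every sample the same replicate number.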

Other observations

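The rule was also applied to the probes whose name begins with another letter. Of the 24555 O probes, which the study's annotation pairs with contigs, 38 (0.155%) met it, and 34 of these were silent in genotype 1, a share unlike that of the P probes, where genotype 1 was silent for 54 of 296. The difference was not tested. Only 925 of the O probes were well above background in all 6 genotypes, against 19812 of the 29094 P probes. The share of 0.155% over all designed O probes thus cannot be set beside the 1.02% of the P probes. Of the 34, 33 had their highest level in genotype 3, as had 20 of the 54 P members silent in genotype 1. A Pearson correlation of at least 0.95 with the profile of P25530 over the other 5 genotypes was reached by 25 of the 34 O probes and by 9 of the 54 P members, P25530 included. Over these 25 O probes and 9 P members together the median level was -6.26 in genotype 1, -1.63 in genotype 2, 2.30 in genotype 3, 1.15 in genotype 4, 0.12 in genotype 5 and -1.55 in genotype 7. P25530 itself was chosen as the reference after its values were seen.

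One probe named with T met the rule. T28 lay at -4.83 in genotype 1 and at -1.73, 1.31, 0.73, -0.17 and -2.11 in genotypes 2, 3, 4, 5 and 7. The 21 M probes and the 38 V probes gave 0.

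The mirror image of the rule, a signal well above background in 1 genotype only and at least 2 log2 units above the others, was met by 231 P probes. It held 68, 41, 15, 37, 57 and 13 probes for genotypes 1, 2, 3, 4, 5 and 7. The lowest counts, 15 and 13, belong to the genotypes with duplicate arrays, which had to pass the flag on both. The part of this requirement in the counts was not tested.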
